A study of Mus musculus with 6 samples.

Results

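Glucocorticoids are part of the hormone mixture that starts adipocyte differentiation, and the genes they act on were examined here in primary brite adipocytes with knockdown (KD) of the long noncoding RNA *Ctcflos*. The genes described are *Nr3c1*, *Fkbp5*, *Tsc22d3*, *Zbtb16*, *Sgk1*, *Klf9*, *Mt1*, *Mt2*, *Hsd11b1* and *Errfi1*, taken by symbol from the deposited expression table, so that they are 10 of its 52089 symbols and 66 of its 168021 transcript accessions. The cells were adipocytes grown from inguinal white adipose tissue preadipocytes of 129SvEv mice. They were induced for 2 days, differentiated with rosiglitazone, and reverse transfected on day 1 of differentiation with 50 nM of a locked nucleic acid gapmer, either ASO1 against *Ctcflos* transcript 1 (*Ctcflos* KD) or a nontargeting gapmer (control). RNA was taken 24 h later, with 3 libraries in each group. The cells of all 6 libraries had seen dexamethasone, a synthetic glucocorticoid, in the induction medium, and none in the differentiation medium. A single oligonucleotide was used for the KD, so loss of *Ctcflos* and an effect of ASO1 on other transcripts cannot be told apart. The sources do not say whether replicates were separate cultures, and the p-values measure the spread between these libraries.

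The glucocorticoid receptor, encoded by *Nr3c1*, waits in the cytosol in a complex with heat shock proteins and cochaperones. After hormone binding it enters the nucleus, where it binds glucocorticoid response elements, palindromes of an AGAACA half-site and its reverse complement, and raises or lowers the transcription of nearby genes. In preadipocytes it acts early, and its targets include the leucine zipper gene *Tsc22d3*, the kinase gene *Sgk1*, the cochaperone gene *Fkbp5* and the metallothionein genes.

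After *Ctcflos* KD, *Sgk1* was higher at 1.75-fold of control, and *Tsc22d3* was lower at 64.3% of control. The other 8 genes did not pass the test. *Nr3c1* itself came to 106% of control. Expression was given as RPKM, that is, reads per kilobase of transcript in relation to the mapped reads of the library, the value of a gene being the mean over its accessions. Genes with a mean of at least 1 RPKM were tested with limma on log2(RPKM + 1), with Benjamini-Hochberg adjustment across every gene tested. All 10 genes passed this filter. At an adjusted p under 0.05, 1 of the 10 was higher and 1 was lower, where 11.5% of all 11701 genes tested were higher and 12.4% were lower. In 3 of the 10, the RPKM of both groups did not overlap, which was so for 44.8% of all genes tested. The median log2 fold change of the 10 genes was -0.17, with 3 positive and 7 negative values, and that of all genes tested was 0.03. Of 8767 genes tested with a known span, 855 span at least 100 kb, and 401 of these were lower and 30 higher (median -0.356). Of the 7912 shorter genes, 798 were lower and 1018 higher (median 0.0553). *Nr3c1*, *Sgk1* and *Zbtb16* span 109, 118 and 184 kb. The part of gene span in the counts of the 10 genes and of the gene lists below was not tested.

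The sequences upstream of *Sgk1* and *Tsc22d3* are shown because these 2 genes passed the test, and those of *Mt1* and *Mt2* because they are described below by the ratio of both levels, a measure chosen after the values were seen. They are the 250 bases before a RefSeq transcription start (GRCm38.p6). RefSeq starts were matched for 8 of the 10 genes, 16 starts in all. Both strands were searched for the palindrome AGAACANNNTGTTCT, for its half-site AGAACA, which is part of the palindrome, and for the core of a metal response element, TGCACNC or TGCGCNC. The *Sgk1* start shown is the only 1 of 6 with the palindrome. The *Tsc22d3* start shown is the only 1 of 3 with a half-site. These 2 windows thus do not stand for the other starts of their genes. Capitals mark the matches, palindrome and half-sites in *Sgk1* and *Tsc22d3* and metal response cores in *Mt1* and *Mt2*. They lie at chr10:21993640-21993889 (+ strand) for *Sgk1*, chrX:140600523-140600772 (- strand) for *Tsc22d3*, chr8:94178839-94179088 (+ strand) for *Mt1* and chr8:94172368-94172617 (+ strand) for *Mt2*.
Sgk1: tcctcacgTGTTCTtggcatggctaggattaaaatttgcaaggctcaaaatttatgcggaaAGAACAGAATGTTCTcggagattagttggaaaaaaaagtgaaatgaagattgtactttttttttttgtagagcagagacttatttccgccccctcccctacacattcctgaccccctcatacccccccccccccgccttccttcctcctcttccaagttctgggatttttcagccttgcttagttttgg
Tsc22d3: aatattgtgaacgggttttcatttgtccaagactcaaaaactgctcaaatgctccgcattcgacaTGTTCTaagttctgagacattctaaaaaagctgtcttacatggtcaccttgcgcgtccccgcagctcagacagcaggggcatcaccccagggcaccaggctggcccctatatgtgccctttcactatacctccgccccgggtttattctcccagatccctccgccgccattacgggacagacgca
Mt1: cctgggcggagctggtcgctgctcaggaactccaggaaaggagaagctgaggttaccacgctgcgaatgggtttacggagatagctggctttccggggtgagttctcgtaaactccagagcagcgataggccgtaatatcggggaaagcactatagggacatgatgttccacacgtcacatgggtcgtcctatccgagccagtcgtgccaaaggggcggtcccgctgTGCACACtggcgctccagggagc
Mt2: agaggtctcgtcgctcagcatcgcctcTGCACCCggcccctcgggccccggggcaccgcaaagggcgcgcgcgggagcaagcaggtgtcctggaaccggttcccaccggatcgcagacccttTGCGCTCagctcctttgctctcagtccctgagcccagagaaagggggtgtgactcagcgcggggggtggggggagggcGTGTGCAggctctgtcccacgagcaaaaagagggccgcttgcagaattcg

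The *Sgk1* sequence holds the full palindrome, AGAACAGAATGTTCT, at chr10:21993701-21993715, centred 182 bases before the start shown and 958 bases before the last of the 6 *Sgk1* starts. Of 32851 RefSeq starts searched in the same way, 3, or 0.00913%, had the palindrome within 250 bases. The half-site is far more frequent, with 16.1% of all starts. It occurred at 3 of the 6 *Sgk1* starts, at 1 of the 3 *Tsc22d3* starts and at none of the others of these genes. The metal response core occurred at 21.4% of all starts, at 1 position for *Mt1*, 3 positions for *Mt2* and 1 position for *Hsd11b1*, whose sequence is not shown. The annotated span of *Mt1* begins at chr8:94178883, so most of the *Mt1* window lies inside it. That of *Mt2* begins at chr8:94172618, just after the *Mt2* window. The counts of these 2 windows are thus not like for like, and bases after the *Mt1* start shown were not searched. A match describes letters in this window and not a bound site.

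The knockdown was visible in *Ctcflos* itself, listed as 1300015D01Rik, with 0.0969, 0.0705 and 0.210 RPKM in the 3 KD libraries and 0.748, 0.751 and 0.840 RPKM in the controls. This is 16.1% of control (log2 fold change -0.66, adjusted p = 0.025, limma without a filter on low values). The call was lost without any 1 library other than KD replicate 3 (adjusted p = 0.062 to 0.13, limma), while the KD libraries stayed below every control. KD replicate 3 kept the most *Ctcflos* and stood apart from the other 2 KD libraries on the first principal component, at -1.8 against -31.8 and -29.3, with controls from 20.3 to 21.9. Depth, recovered from the smallest steps of the values, was 60.7 to 75.5 mio mapped reads in KD and 62.9 to 79.2 mio in controls. The paper states fewer reads per sample, from paired-end sequencing. Whether a recovered read, here and in the read counts below, is 1 mate or a pair was not determined. All 7 adipocyte markers were present, with a summed level of 4397 to 5864 RPKM in KD and 6053 to 6707 RPKM in controls, and 1 of the 7, *Cebpa*, was lower. Fewer cells of a type and less RNA per cell cannot be told apart in these bulk samples. Among markers of other cells, the summed level for preadipocytes was 179 to 399 against 275 to 449 RPKM. Most of it was *Ly6a* (means 281 and 346 RPKM). *Pdgfra* was lower, while *Pdgfrb* and *Cd34* had positive log2 fold changes (0.17 each) and did not pass the test. The sum was 6.68 to 18.5 against 8.36 to 29.9 RPKM for macrophages, with *Cd68* higher, while *Lyz2* had a negative log2 fold change (-1.45) and did not pass. For the 5 endothelial markers, of which none reached a mean of 1, it was 0.666 to 0.985 against 1.24 to 1.46 RPKM. For mesothelial markers it was 3.17 to 3.89 against 4.40 to 5.53 RPKM, nearly all of it *Lrrn4*, which was lower, and the others were near 0. The part of these differences in the results was not tested.

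**Figure D1:**
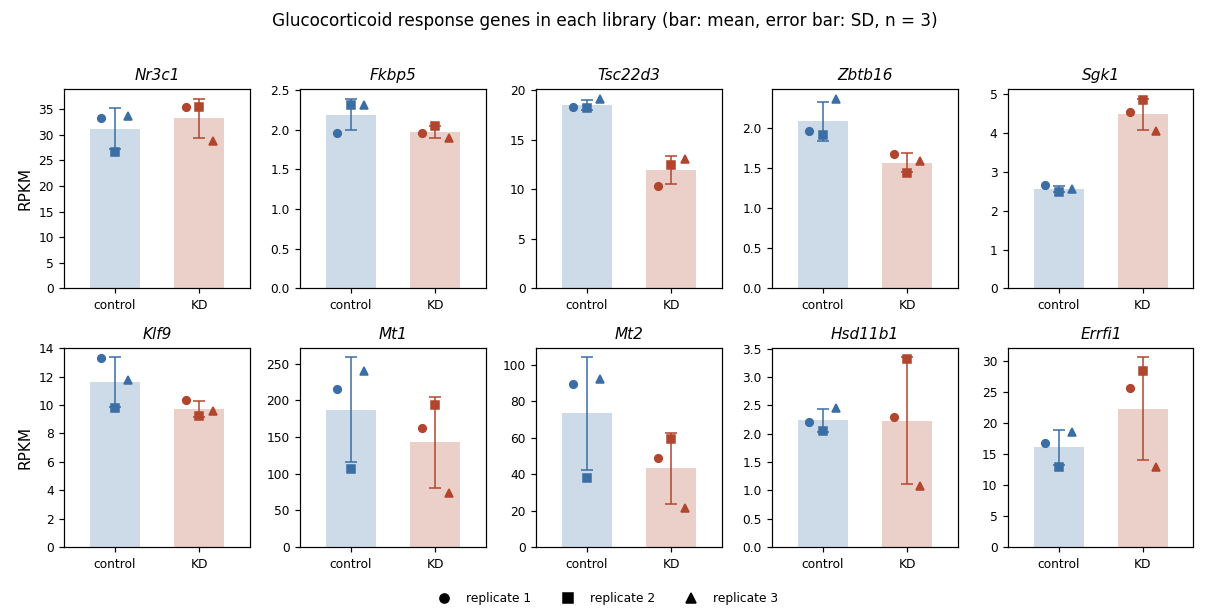
RPKM of each of the 10 genes in the 3 control libraries (blue) and the 3 *Ctcflos* KD libraries (red). Bars are means and error bars SD (n = 3), and point shapes give the replicate number. *Sgk1*, *Tsc22d3* and *Zbtb16* do not overlap between groups, and KD replicate 3 (triangle) is the lowest KD library for *Mt1*, *Mt2*, *Hsd11b1* and *Errfi1*.

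Among the control libraries, levels of the 10 genes covered a wide range. *Mt1* was the most abundant, with 187 ± 71.4 RPKM (SD, n = 3), at percentile 98.5 of all genes tested. It was followed by *Mt2* with 73.4 ± 30.9 RPKM and *Nr3c1* with 31.2 ± 3.96 RPKM. *Tsc22d3* (18.5 ± 0.517 RPKM), *Errfi1* (16.1 ± 2.86 RPKM) and *Klf9* (11.6 ± 1.76 RPKM) came next, each overlapping its neighbour in this order. *Sgk1* had 2.57 ± 0.0800 RPKM. *Hsd11b1* (2.24 ± 0.201 RPKM), *Fkbp5* (2.19 ± 0.200 RPKM) and *Zbtb16* (2.09 ± 0.246 RPKM) were lowest and overlapped, near percentile 30 of the genes tested, with 30.8, 29.9 and 28.2. This order depends on the mean over accessions, which includes those near 0. Of 11 *Fkbp5* accessions, 6 passed the filter, and its RefSeq accession had 3.93 RPKM in controls. RefSeq accessions of *Sgk1* had 2.975 to 3.848 RPKM and that of *Zbtb16* 1.96 RPKM. The spread was as different as the level, with a coefficient of variation of 2.79% for *Tsc22d3* and 42.1% for *Mt2* in controls.

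To see whether the receptor and its ligand supply were altered, *Nr3c1* and *Hsd11b1* were compared first. *Nr3c1* had 35.3, 35.5 and 28.7 RPKM in KD and 33.3, 26.6 and 33.7 RPKM in controls. The groups overlapped, and the difference was within the spread of the libraries (log2 fold change 0.09, 95% interval -0.25 to 0.42, adjusted p = 0.68, limma). *Hsd11b1* encodes the reductase that regenerates active glucocorticoid from its inert form inside the cell, and it had 2.29, 3.32 and 1.07 RPKM in KD and 2.21, 2.06 and 2.45 RPKM in controls. The KD libraries lay on both sides of the controls, with a coefficient of variation of 50.4% against 8.95%. On one *Hsd11b1* transcript of known length, the value of KD replicate 2 rested on 368 reads and that of KD replicate 3 on 97 reads. The log2 fold change of *Hsd11b1* was -0.07 (95% interval -0.61 to 0.47, adjusted p = 0.85, limma), and 0.22 without KD replicate 3. *H6pd*, which makes the cofactor for this reductase, had a mean of 30.1 RPKM in KD and 29.6 RPKM in controls (adjusted p = 0.91, limma). Of the 7 genes of ligand supply, 2 passed the filter and 0 passed the test or an unadjusted p under 0.05. *Nr3c2*, the mineralocorticoid receptor that also binds glucocorticoids, was under the filter with 0.258 RPKM in KD and 0.478 RPKM in controls (adjusted p = 0.16, limma without a filter).

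Of 21 genes of the receptor complex and its cofactors tested, 15 did not pass the test, 4 were higher and 2 were lower. This is near the background, since 24.0% of all genes tested were called in either direction. *Ptges3*, a cochaperone of the receptor, had 40.1, 46.0 and 34.4 RPKM in KD and 23.1, 22.5 and 23.3 RPKM in controls (log2 fold change 0.77, adjusted p = 0.0093, limma). *Ppid*, an immunophilin of the same complex, rose from 3.01 to 5.24 RPKM (log2 fold change 0.64, adjusted p = 0.0057, limma). The other 2 that were higher were the chaperones *Hsp90aa1* and *Hsp90ab1*, named after their values were seen, with log2 fold changes of 0.60 and 0.60. The nuclear receptor coactivator *Ncoa1* fell from 5.12 to 3.27 RPKM and the corepressor *Ncor1* from 6.02 to 3.37 RPKM (log2 fold changes -0.54 and -0.70). Without KD replicate 1, KD replicate 2 or control 2, 3 of these genes were called, and 1 without control 1 or control 3. Without KD replicate 3, 9 were called, and 3 without a filter on low values. Over all genes tested, 2803 of 11701 were called with all libraries and 4810 of 11704 without KD replicate 3. Without control 1, 421 of 11689 were called, and without control 3, 369 of 11692. Counts with 1 library left out thus moved across the whole table, here and for the lists below.

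*Fkbp5* encodes an immunophilin that holds the receptor in a state of low hormone affinity and is induced by it. It had 1.96, 2.04 and 1.89 RPKM in KD and 1.96, 2.30 and 2.30 RPKM in controls. KD replicate 1 and control 1 were at the same level, so that the groups overlapped (log2 fold change -0.10, 95% interval -0.31 to 0.10, adjusted p = 0.42, limma). *Fkbp4*, the related immunophilin that favours hormone binding and nuclear transport, had a mean of 10.1 RPKM in KD and 11.3 RPKM in controls and did not pass the test (adjusted p = 0.32, limma).

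Of the transcription regulators among the targets, *Tsc22d3* fell. Its product is a leucine zipper protein known to mediate antiinflammatory effects of glucocorticoids. *Tsc22d3* had 10.3, 12.4 and 13.0 RPKM in KD and 18.2, 18.2 and 19.1 RPKM in controls. Every KD library was below every control, and the KD libraries spread more widely than the controls. The log2 fold change was -0.60 ± 0.117 (SE; 95% interval -0.87 to -0.33, adjusted p = 0.013, limma). It stayed between -0.66 and -0.51 under all 12 alternative settings, and the adjusted p was 0.062 without control 1 and 0.071 without control 3. The exact two-sided permutation test gave p = 0.1, the smallest that 3 against 3 libraries can give. It gave the same value for *Sgk1* and *Zbtb16*.

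Of the other TSC22 genes, *Tsc22d1* and *Tsc22d2* changed in the direction opposite to *Tsc22d3*. *Tsc22d1* had 69.6, 78.4 and 47.1 RPKM in KD and 32.0, 27.9 and 36.1 RPKM in controls (log2 fold change 0.98, adjusted p = 0.015, limma). *Tsc22d2* rose from a mean of 4.53 to 8.95 RPKM (log2 fold change 0.81, adjusted p = 0.032, limma). *Tsc22d4* had a log2 fold change of 0.11 with overlapping groups and did not pass the test (adjusted p = 0.59, limma). Thus 2 of the 3 family members other than *Tsc22d3* were called, where 24.0% of all genes tested were. The count was 1 without KD replicate 1 or without a filter, and 0 without any 1 of the 3 controls.

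*Zbtb16*, a zinc finger repressor that many cell types induce in response to glucocorticoids, had 1.67, 1.44 and 1.59 RPKM in KD and 1.97, 1.92 and 2.37 RPKM in controls. All KD libraries were below all controls, at 75.3% of the control mean. The log2 fold change was -0.26 (95% interval -0.48 to -0.04), and the adjusted p of 0.084 (limma) missed the threshold. *Klf9*, a Kruppel-like transcription factor and direct target of the receptor, had 10.3, 9.23 and 9.55 RPKM in KD and 13.3, 9.77 and 11.7 RPKM in controls. Control 2 was at the level of the KD libraries, and the difference did not pass the test (log2 fold change -0.23, adjusted p = 0.22, limma).

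Of the 9 other Kruppel-like factors tested, 2 were higher and 1 was lower, where 11.5% of all genes tested were higher and 12.4% lower. *Klf4* had 9.99, 5.65 and 2.11 RPKM in KD and 1.46, 1.40 and 1.36 RPKM in controls (log2 fold change 1.34, adjusted p = 0.038, limma). The KD libraries differed widely among themselves, and all were above the controls. *Klf3* rose from 3.84 to 5.15 RPKM (adjusted p = 0.032, limma). *Klf15*, itself a glucocorticoid target that acts in adipocyte metabolism, fell from 2.41 to 1.39 RPKM (adjusted p = 0.025, limma). Without KD replicate 3, 8 of the 9 were called, where 4810 of all 11704 genes tested were called at that setting. The count was 1 without KD replicate 2 or control 2, and 0 without KD replicate 1, control 1 or control 3. Without a filter on low values 0 were called, also with limma.

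*Sgk1* had the smallest adjusted p of the 10 genes. It encodes the serum- and glucocorticoid-regulated kinase, which acts on ion transport and FOXO factors. *Sgk1* had 4.55, 4.85 and 4.07 RPKM in KD and 2.65, 2.49 and 2.56 RPKM in controls. The lowest KD library was well above the highest control, and the controls differed little among themselves. The log2 fold change was 0.62 ± 0.0939 (SE; 95% interval 0.40 to 0.83, adjusted p = 0.0072, limma). *Sgk1* passed the test under all 12 alternatives, with an adjusted p from 0.0012 to 0.049. Its start with the palindrome is the one printed above.

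Among the SGK family and its partners, 4 of 8 genes tested were lower, where 12.4% of all genes tested were. Of these 4, *Nedd4l* and *Sgk3* had a KD mean under 1 RPKM and passed the filter only through the controls, so the count is no support for a change of the list. *Nedd4l*, the ubiquitin ligase that SGK1 phosphorylates, had 0.527, 0.351 and 0.618 RPKM in KD and 1.94, 1.77 and 1.91 RPKM in controls (log2 fold change -0.94, adjusted p = 0.0027, limma). The related kinase gene *Sgk3* fell from 2.09 to 0.986 RPKM (adjusted p = 0.015, limma). *Mtor* and *Pdpk1*, kinases that act upstream of SGK1, fell to 58.5% and 73.3% of control (adjusted p = 0.023 and 0.036, limma). The count was 2 without KD replicate 1 or 2 or without a filter, and 1 without control 1 or control 3.

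*Errfi1*, an inhibitor of the EGF receptor that glucocorticoids induce, had 25.7, 28.5 and 12.9 RPKM in KD and 16.8, 13.0 and 18.6 RPKM in controls. KD replicates 1 and 2 were above every control, and KD replicate 3 was at the level of the lowest control. With all libraries the log2 fold change was 0.39 (95% interval -0.25 to 1.03, adjusted p = 0.33, limma). Without KD replicate 3 it was 0.73, and *Errfi1* passed the test (adjusted p = 0.010, limma), as did 4810 of all 11704 genes tested. One *Errfi1* transcript held 2810 reads in KD replicate 3 and 6905 and 7588 reads in the other KD libraries.

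In the EGF receptor family, 2 of 10 genes passed the filter, and 1 was higher and 1 lower, where 24.0% of all genes tested were called. *Egfr*, the receptor that the *Errfi1* product inhibits, fell, with 7.14, 6.54 and 7.25 RPKM in KD and 15.3, 14.0 and 15.6 RPKM in controls (46.6% of control, adjusted p = 0.0026, limma). Its ligand *Btc* rose from 2.33 to 4.13 RPKM (log2 fold change 0.61, adjusted p = 0.050, limma, just under the threshold). Only 1 of both genes was called without any 1 library other than KD replicate 3. A further ligand, *Hbegf*, was under the filter and rose from 0.191 to 0.963 RPKM (adjusted p = 0.032, limma without a filter).

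**Figure D2:**
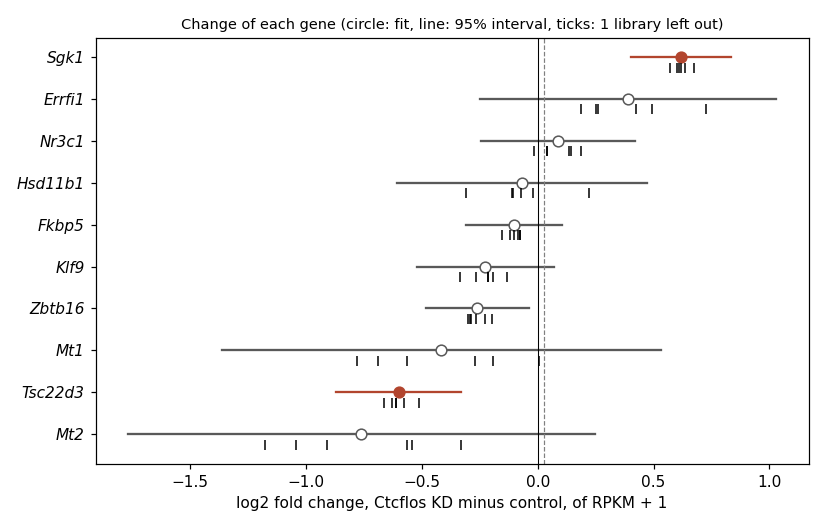
Log2 fold change (*Ctcflos* KD minus control, of RPKM + 1) of each gene, with the 95% interval as a line. Filled red circles passed the test, short ticks give the value with 1 library left out, and the dashed line is the median of all genes tested (0.03). Intervals of *Mt1* and *Mt2* are the widest, and ticks of *Nr3c1*, *Hsd11b1* and *Mt1* lie on both sides of 0.

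The metallothioneins bind zinc and copper and are induced by metals through the factor MTF1 and by glucocorticoids. *Mt1* had 162, 193 and 73.2 RPKM in KD and 216, 106 and 240 RPKM in controls. *Mt2* had 49.0, 59.3 and 21.4 RPKM in KD and 89.8, 37.8 and 92.6 RPKM in controls. In both genes KD replicate 3 and control 2 were the lowest libraries of their groups, and the groups overlapped. The log2 fold changes were -0.42 for *Mt1* (95% interval -1.36 to 0.53, adjusted p = 0.48, limma) and -0.76 for *Mt2* (95% interval -1.77 to 0.25, adjusted p = 0.23, limma). That of *Mt1* was 0.0051 without KD replicate 3.

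The ratio of *Mt1* to *Mt2* RPKM was 3.31, 3.26 and 3.41 in KD and 2.40, 2.80 and 2.59 in controls, without overlap between groups. It was 1.28-fold higher in KD. It was taken up because of these values, and 44.8% of single genes tested also did not overlap, so no test is given. The ratio was 1.28-fold higher with the most abundant accession of each gene alone, 1.30-fold with RefSeq accessions alone, and 1.23- to 1.33-fold when 1 library was left out. The longest run of bases shared by *Mt1* and *Mt2* transcripts was 20. Across the 6 libraries, which share a lane, both genes varied together (Pearson r = 0.976, and 0.997 after the group means were removed), given as a description. With group means kept, *Mt2* ranked 62 among genes tested by r to *Mt1*.

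**Figure D3:**
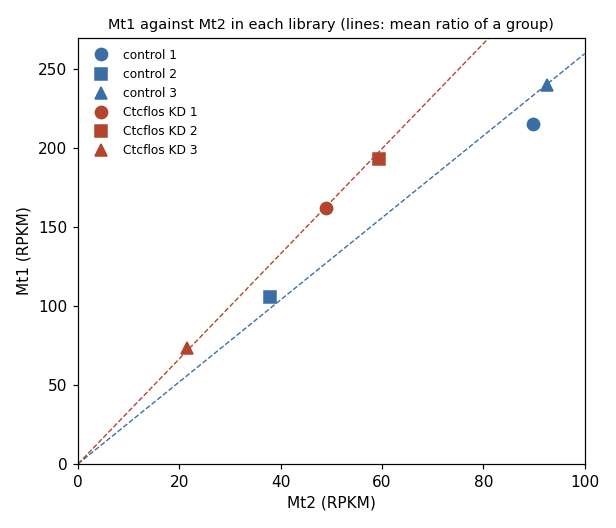
*Mt1* against *Mt2* RPKM in each library, controls in blue and *Ctcflos* KD in red, with point shapes for the replicate number. Dashed lines through 0 have the slope of the mean ratio of a group, 3.33 in KD and 2.60 in controls, and the KD libraries lie on the steeper line at low and at high levels.

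The regulators of metal homeostasis were measured beside them. *Mtf1* had a mean of 2.30 RPKM in KD and 1.95 RPKM in controls (adjusted p = 0.31, limma). *Slc30a1*, a zinc exporter that MTF1 induces, had 4.31, 3.97 and 3.35 RPKM in KD and 3.02, 3.01 and 2.70 RPKM in controls, without overlap and with an adjusted p of 0.062 (limma). Of 11 genes of this system tested, 1 was higher and 1 was lower, a smaller share than the 24.0% of all genes tested. The zinc importer *Slc39a10* had 8.36, 7.72 and 5.15 RPKM in KD and 3.67, 3.39 and 3.44 RPKM in controls (log2 fold change 0.82, adjusted p = 0.013, limma). The transporter *Slc30a7*, which loads zinc into the secretory pathway, fell from 4.38 to 3.07 RPKM (adjusted p = 0.019, limma). The count was 1 without KD replicate 2, 0 without control 1 or control 3, and 3 at most. *Mt3* and *Mt4* were listed at 0 in all 6 libraries.

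Of 23 other genes tested that glucocorticoids induce, 19 did not pass the test, 2 were higher and 2 were lower, a smaller share than the 24.0% of all genes tested. Their median log2 fold change was -0.02. *Maoa*, encoding monoamine oxidase A, had 32.9, 27.2 and 19.3 RPKM in KD and 10.9, 10.4 and 10.8 RPKM in controls (log2 fold change 1.20, adjusted p = 0.0071, limma). *Glul*, glutamine synthetase, rose from 55.9 to 82.7 RPKM (adjusted p = 0.041, limma). *Pik3r1*, a regulatory subunit of the insulin signalling kinase, fell from 28.3 to 16.3 RPKM (adjusted p = 0.011, limma). *Lpin1*, a phosphatidate phosphatase of triglyceride synthesis, fell from 27.6 to 16.2 RPKM (adjusted p = 0.018, limma). The count was 2 without KD replicate 1, 1 without control 1 or control 3, and 9 without KD replicate 3. At this last setting 4810 of all 11704 genes tested were called. *Tat*, a liver target of the receptor, was listed at 0 in all libraries.

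Of inflammatory genes that glucocorticoids repress, 8 of 16 passed the filter and 2 were higher, the same 2 that had an unadjusted p under 0.05, a share near the 24.0% of all genes tested that were called. *Ptgs2*, the inducible cyclooxygenase, had 7.94, 8.34 and 5.07 RPKM in KD and 1.15, 1.75 and 1.58 RPKM in controls (log2 fold change 1.69, adjusted p = 0.0027, limma). *Il6* had 5.01, 7.08 and 2.64 RPKM in KD and 1.76, 2.08 and 2.51 RPKM in controls (log2 fold change 0.85, adjusted p = 0.047, limma). The lowest KD library of *Il6* was close to the highest control. The count was 4 without KD replicate 3, where 4810 of all 11704 genes tested were called, and 1 without any other 1 library. Without a filter on low values, 1 was called. Of 6 macrophage markers listed, *Cd68* had a mean of 3.24 RPKM in KD and 1.08 RPKM in controls and *Csf1r* 1.30 and 0.514 RPKM, both without overlap between groups, and only *Cd68* passed the test (adjusted p = 0.023, limma). *Lyz2* had 5.25 and 12.9 RPKM, *C1qa* 0.813 and 1.05 RPKM, and *Ptprc* 0.00199 and 0.0327 RPKM, and *Itgam* was also under 0.1 RPKM in each group. The part of these markers in the values of *Ptgs2* and *Il6* was not tested.

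**Figure D4:**
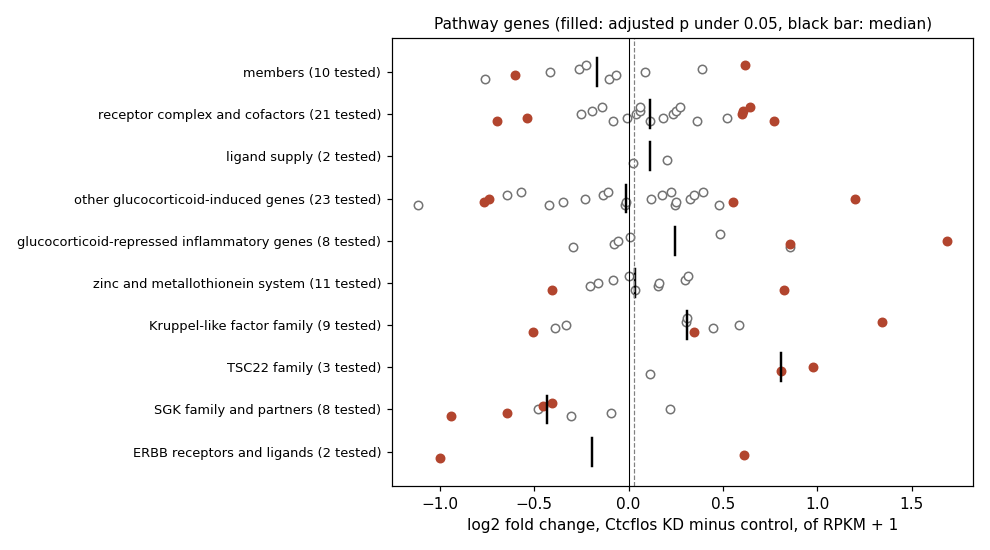
Log2 fold change (*Ctcflos* KD minus control, of RPKM + 1) of the 10 genes (top line, labelled members) and of 9 lists of pathway genes, 1 circle per gene tested. Filled red circles passed the test, black bars are medians and the dashed line is the median of all genes tested. The 4 genes that passed among the SGK partners are all lower, while the other lists with more than 2 such genes hold both directions. Of these 4, *Nedd4l* and *Sgk3* passed the filter only through the controls, so the count is no support for a change of the list.

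The transcript accessions of each gene gave the same picture. Of the 66 accessions, 57 passed the filter of 1 RPKM and were tested, and 9 were higher and 8 were lower, where 26.0% of all 67403 accessions tested were called, 11.3% higher and 14.7% lower. The 9 were the tested accessions of *Sgk1*, at 170% to 195% of control. The 8 were those of *Tsc22d3*, at 59.8% to 65.7% of control. Accessions of a gene overlap and share reads, so they are not independent. Without control 1 and without control 3, 11 and 10 accessions passed. Accessions of *Nr3c1* lay between 94.6% and 114% of control, and those of *Mt2* at 58.9%. Relative use of accessions within a gene, tested with limma diffSplice, was called in 0 of the 10 genes (adjusted p = 1 for each, 0 at an unadjusted p under 0.05), with 0.768% of 10027 genes called.

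**Figure D5:**
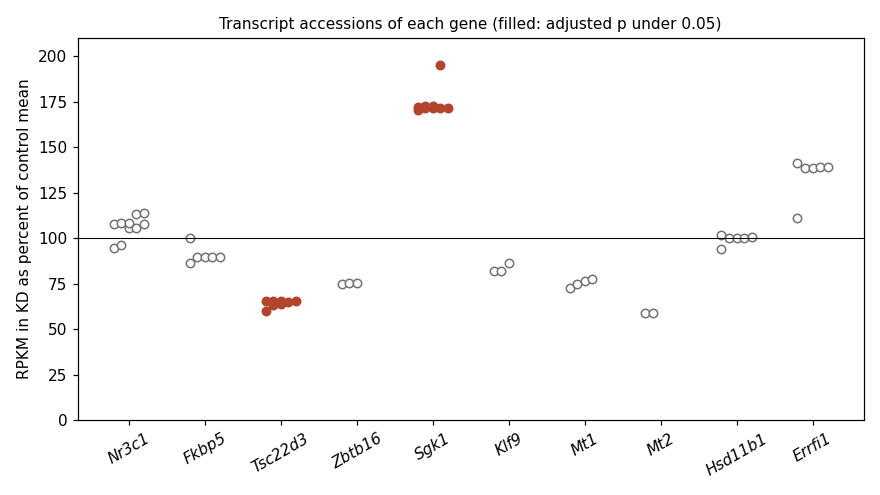
Mean RPKM in *Ctcflos* KD as percent of the control mean for each tested transcript accession, grouped by gene. Filled red circles passed the test: all 9 of *Sgk1* lie at 170% or above and all 8 of *Tsc22d3* below 66%, and the line marks 100%.

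Several of the 10 genes varied together within groups. KD replicate 3 was the lowest KD library for 7 of the 10 genes, and for 45.6% of all genes tested. Control 2 was the lowest control for 9 of the 10, and for 51.3% of all genes tested. The exception was *Fkbp5*, which was lowest in control 1. After group means were removed, *Nr3c1* varied with *Mt1* (r = 0.986) and *Mt2* (r = 0.991), and *Sgk1* with *Hsd11b1* (r = 0.958), over 6 libraries that share a lane. With group means kept, r was 0.784, 0.647 and 0.0879 for these pairs. The second gene of each pair then ranked 1178, 2304 and 6079 among genes tested by r to the first. After *Mt1* with *Mt2*, these pairs had the highest r within groups of all pairs of the 10. How common such r within groups is among all genes tested is not given, so the pairs are a description only. *Tsc22d3* did not share this order within groups, with r = -0.292 to *Mt1* and -0.439 to *Errfi1*. Neither did *Fkbp5*, with r = 0.0198 to *Mt1* and -0.746 to *Klf9*, and *Zbtb16* had r = 0.255 to *Mt1*.

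For each of the 10, the other gene with the highest Pearson r of log2(RPKM + 1) over the 6 libraries was taken as a description of likeness. Each r is the highest among all genes tested and keeps the group means. Values near 1 were thus found for all 10, called or not. *Tsc22d3* was most like *Xbp1* (r = 0.999), with 57.6 RPKM in controls and 34.4 RPKM in KD. The direction of *Xbp1* follows from this choice and is no separate result. *Sgk1* was most like 3930402G23Rik (r = 0.999) and *Zbtb16* most like 4930523C07Rik (r = 0.990). *Mt1* was most like *Egln3* (r = 1), *Mt2* like *Plod1* (r = 0.998) and *Errfi1* like *Slc25a44* (r = 0.999). *Nr3c1* was most like *Coa5* (r = 0.995), *Klf9* like *Fam166a* (r = 0.996), *Hsd11b1* like *Fxyd1* (r = 0.987) and *Fkbp5* like *Wdyhv1* (r = 0.986).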

How the data were processed

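Total RNA of 3 *Ctcflos* KD and 3 control samples was sequenced in paired-end reads after stranded library preparation. The authors deposited 1 table of RPKM values per transcript accession, written with decimal commas, with 168326 lines, of which 305 exact repeats were removed. How these values were made, and whether strand was used, is not given in the sources used here, so that overlapping genes on opposite strands are uncertain. STAR on GRCm38 is stated for the splice analysis only. Groups came from sample labels.

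Gene values (mean RPKM over accessions of a symbol, at least 1 RPKM on average) were tested with limma-trend 3.58.1 in R 4.3.3 on log2(RPKM + 1). The fold changes understate those of low genes. Usage was tested with diffSplice at a pseudocount of 0.1. Single values were compared by exact two-sided permutation tests. Between 91.9% and 93.1% of low values were whole reads within 0.1 read, which gave the depth. At this depth, 1 read on 1 kb equals 0.0126 to 0.0165 RPKM, and intervals from it cover counting error only. Scripts were tested on simulated data. Python 3.11.15 and pandas 2.3.3 were used.

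The genes and lists were chosen with earlier results of these data known. Named were the 10 genes, *Ctcflos*, called genes of each list (at most 4 by smallest p), 6 further pathway genes and the most alike gene of each. *Hsp90aa1*, *Hsp90ab1*, *Tsc22d4*, *Hbegf*, *Mt3*, *Mt4*, *Tat* and the single marker genes were named after their values were seen. Alternatives were another pseudocount, no filter, another scaling, RefSeq accessions or the highest accession alone, the replicate number as a block and leaving out each library.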

Additional observations from a re-analysis of the deposited data

How the results depend on the processing

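*Sgk1* was called under all 12 alternatives, *Tsc22d3* under 10, and settings other than leaving out a library changed neither the direction nor the call of any of the 10 genes. When 1 library was left out, *Nr3c1* ranged from -0.018 (without control 2) to 0.19, *Mt1* from -0.78 to 0.0051 and *Hsd11b1* from -0.31 to 0.22 (the upper ends of both without KD replicate 3), and none of these 3 passed the test. Without a filter on low values, calls were 3 for the receptor complex, 1 for repressed inflammatory genes and 0 for Kruppel-like factors. They were 1 for the TSC22 family, 2 for SGK partners and 1807 of 38335 genes in all. For Kruppel-like factors, 0 of 15 tested were called without the filter and 3 of 9 with it. With the filter, 9 of 9 had an unadjusted p under 0.05 (limma), as had 4556 of all 11701 genes tested. With RefSeq accessions alone, 5 Kruppel-like factors were called. With the highest accession alone, 1 TSC22 gene and 1 ERBB gene were called, and with a pseudocount of 0.1, 1 ERBB gene.

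Deviations from the group mean of libraries with the same number had r = 0.287, -0.288 and -0.418. Deviations from a mean of 3 libraries are tied to each other. These values thus cannot tell whether libraries with the same number were prepared together. Under the replicate block, 1671 genes were called in place of 2803, with the same counts for the 10 genes (1 higher, 1 lower). The block left 1 inflammatory gene, 1 zinc gene, 1 Kruppel-like factor and 1 ERBB gene, and *Ctcflos* at -0.66 with an adjusted p of 0.11 (limma).

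Leaving out each library gave 369 to 4810 genes in all, the latter without KD replicate 3. The counts ranged from 1 to 3 of the 10 genes, 10 to 23 of their accessions, 1 to 9 of the receptor complex, 1 to 9 of other induced genes, 1 to 4 of inflammatory genes, 0 to 3 of the zinc system, 0 to 8 Kruppel-like factors, 0 to 2 TSC22 genes, 1 to 4 SGK partners and 1 to 2 ERBB genes. *Ctcflos* stayed between -0.72 and -0.63 and was, among these, called only without KD replicate 3. The cause was not tested. Alternatives for the ratio of *Mt1* to *Mt2* were chosen after seeing the data. With 3 libraries a group and RPKM in place of counts, the intervals above set what could be seen.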
